A study of Homo sapiens with 6 samples.

Results

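KLF2, KLF4, KLF6, KLF10, MAFF, BHLHE40, HES1, NFIL3, IER2 and IER5 are transcription factors or transcriptional regulators that many cells make soon after a growth factor binds its receptor. The 10 genes were chosen by name, with earlier results of these data known. Each had 1 probe set among the 17687 genes that the platform annotation names, so the rule of taking the brightest probe set never had to decide. They were followed across 6 arrays of A431, an established cell line from a squamous carcinoma of human skin that carries very many EGF receptors. All cells had been kept in medium with 10% fetal bovine serum and then starved for 24 h. The 2 control arrays came from cells with no treatment, the 2 EGF arrays from cells given EGF at 100 ng/ml, and the 2 EGF plus gefitinib arrays from cells given the same EGF with gefitinib at 10 µM. Gefitinib blocks the kinase of the EGF receptor. No group received gefitinib alone, so what gefitinib does without EGF was not measured. The labels place the harvest at 30 min, without saying when gefitinib was added. They number the arrays as biological replicates, but nothing ties them to separate cultures, so p-values cover only how far these samples spread, and that spread may be technical.

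An activated EGF receptor signals through RAS and ERK, through PI3K and AKT, and through other kinases. Immediate early genes answer such signals from factors already present in the cell, without new protein synthesis, and many of their products are themselves transcription factors that set the next layer of expression. KLF proteins bind GC-rich DNA through zinc fingers. MAFF and NFIL3 are leucine zipper proteins, and BHLHE40 and HES1 are helix-loop-helix repressors. IER2 and IER5 are small nuclear proteins that act on transcription without a classical DNA-binding domain.

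Values are log2 signals per probe set, as deposited, and a change of 1 is a doubling. A limit was set for each array at the level that 95% of its negative controls did not exceed. It ran from 7.14 to 7.65, and 38.4% to 42.1% of the 21448 transcript probe sets lay above it. Of the 10 genes, 7 lay above the limit on all 6 arrays and 8 on at least 2. KLF2 lay below it on every array and MAFF on all but 1. All 9 measured epithelial markers, among them KRT5 and EPCAM, lay above the limit on every array. Of other cell types, 4 of 6 fibroblast, 4 of 5 leukocyte and 5 of 6 endothelial markers lay above it on no array. The exceptions were LUM and COL1A2, CD68, and CDH5. FOS, a classical immediate early gene, lay below the limit on all 6 arrays. EGR1, another, measured 11.70 and 11.67 in the control and 11.80 and 11.77 with EGF, and 10.23 and 9.10 with EGF plus gefitinib, 2.12 lower than with EGF (limma, adjusted p = 0.0061). EGF and control differed by 0.10 for EGR1 (adjusted p = 0.894) and by −0.42 for FOS (adjusted p = 0.321). Neither gene was called with EGF at a labelled harvest of 30 min, when both are known to be induced. FOS lay below the limit throughout and EGR1 was already bright in the control, so these 2 genes cannot settle whether the labelled time is right. The labelled time was not tested here, and the EGF differences below are those of the labelled groups, whatever the true time.

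The 250 bases before the transcription start are shown for the 5 genes that were called in at least 1 comparison, since these are the genes whose RNA the results turn on. RefSeq promoter sequences of build GRCh38.p14 were used for 9 of the 10 genes. KLF10 was left out of the motif search, so the motif counts say nothing about its promoter. Capitals mark the E-box CACGTG, which BHLHE40 binds, the N-box CACNAG, which HES1 binds, and the cyclic AMP response element TGACGTCA, each on either strand.
KLF6 (chr10:3785210-3785459, - strand): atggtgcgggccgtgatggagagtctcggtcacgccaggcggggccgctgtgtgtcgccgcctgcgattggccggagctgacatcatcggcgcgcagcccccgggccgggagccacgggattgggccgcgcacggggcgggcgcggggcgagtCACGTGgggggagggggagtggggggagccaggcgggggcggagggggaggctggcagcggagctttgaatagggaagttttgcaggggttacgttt
BHLHE40 (chr3:4979187-4979436, + strand): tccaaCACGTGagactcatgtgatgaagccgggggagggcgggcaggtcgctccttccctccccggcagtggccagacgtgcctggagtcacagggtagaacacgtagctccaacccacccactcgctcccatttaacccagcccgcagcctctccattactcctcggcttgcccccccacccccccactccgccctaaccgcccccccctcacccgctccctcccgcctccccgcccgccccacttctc
MAFF (chr22:38201744-38201993, + strand): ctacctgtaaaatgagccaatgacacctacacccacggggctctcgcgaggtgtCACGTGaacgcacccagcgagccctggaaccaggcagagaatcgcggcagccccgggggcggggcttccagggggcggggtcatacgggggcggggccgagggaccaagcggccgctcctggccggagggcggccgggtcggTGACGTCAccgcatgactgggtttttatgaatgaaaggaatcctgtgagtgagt
IER5 (chr1:181088450-181088699, + strand): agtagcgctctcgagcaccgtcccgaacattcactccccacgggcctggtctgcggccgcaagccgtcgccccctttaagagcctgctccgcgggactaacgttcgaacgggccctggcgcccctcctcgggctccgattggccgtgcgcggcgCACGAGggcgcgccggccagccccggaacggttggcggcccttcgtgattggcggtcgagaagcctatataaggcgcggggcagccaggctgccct
HES1 (chr3:194135898-194136147, + strand): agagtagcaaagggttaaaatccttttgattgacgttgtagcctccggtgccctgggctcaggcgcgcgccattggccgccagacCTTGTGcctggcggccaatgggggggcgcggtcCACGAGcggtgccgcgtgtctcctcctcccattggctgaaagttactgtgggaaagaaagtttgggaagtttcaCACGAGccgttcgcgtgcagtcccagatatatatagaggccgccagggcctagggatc

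In these windows an E-box stood before KLF6, BHLHE40 and MAFF, 97 to 92, 245 to 240 and 196 to 191 bases before the start. A second window of MAFF, not shown, also held an E-box, 81 to 76 bases before its start, and so did the window of KLF4. The E-box was found in 4 of the 9 genes searched and in 6.34% of 35116 promoter windows of the same length. Before HES1 there were 3 N-boxes, and 1 before IER5, a motif that 32% of all windows hold. MAFF alone of the 9 carried the cyclic AMP response element, 54 to 47 bases before its start, against 1.65% of all windows. Its core TGACG, counted alone or within it, was found in 5 of 9 genes (21.2% of all windows). The GC box GGGCGG, a letter string that KLF and SP proteins can bind, was found in 7 of 9 genes (42.6%), CCAAT in 5 (32%) and the ETS core CCGGAA in 2 (14.5%). No window of the 9 genes held the CArG box of serum response factor (1.16%), the AP-1 site TGANTCA (6.57%), the FOXO site TGTTTAC (2.98%) or TATAAA (10.7%). These counts cover both strands and a single short window, MAFF and NFIL3 having 2 windows each, and a match is not evidence of binding.

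EGF was first set against the starved control. KLF6, BHLHE40, IER5 and MAFF rose and HES1 fell, while KLF2, KLF4, KLF10, NFIL3 and IER2 did not pass the test. The 4 higher calls of 10 stand against 6.61% of all transcript probe sets called higher, and the 1 lower call against 5.3%. Because the 10 genes were chosen with earlier results of these data known, these shares are no test of an excess. In either direction 11.9% of all probe sets were called. Of those above the limit on at least 2 arrays, 23.2% were called, 13.3% higher and 9.88% lower. The median difference of the 10 genes was 0.62 and that of all probe sets −0.03. The arrays of the groups did not overlap for 9 of the 10 genes, beside 55.5% of all probe sets. For KLF4 and NFIL3, both uncalled, the gap was at most 0.01. Calls are limma's at an adjusted p under 0.05 over all 21448 probe sets.

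**Figure D1:**
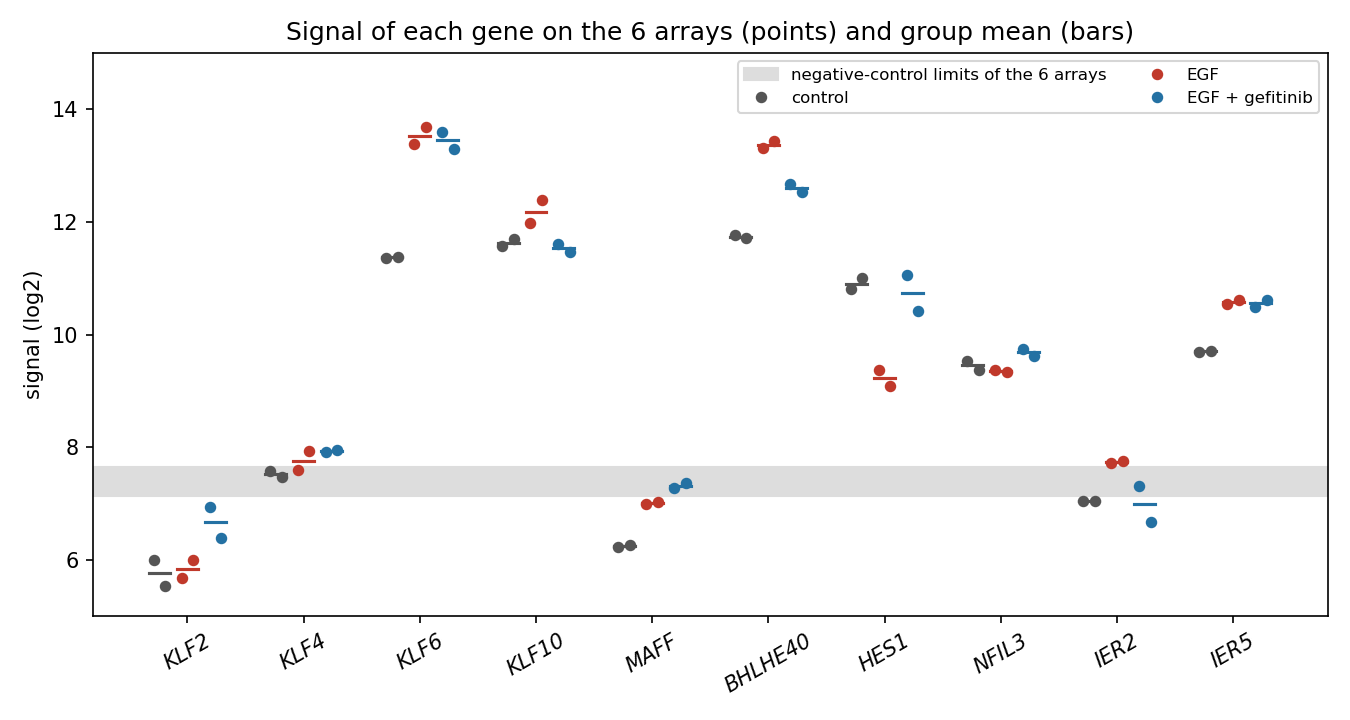
Log2 signal (vertical axis) of the 10 genes on each array, as points coloured by group, with bars at the means of 2 arrays and a grey band over the negative-control limits of the 6 arrays (7.14 to 7.65). KLF6 and IER5 sit as high with EGF plus gefitinib as with EGF, BHLHE40 lies between the control and EGF levels, HES1 is low on the EGF arrays, and KLF2, MAFF and IER2 lie in or near the band.

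KLF6 is a zinc finger factor induced by serum, wounding and growth factors. It measured 11.36 and 11.38 in the control, 13.39 and 13.68 with EGF, and 13.60 and 13.30 with EGF plus gefitinib. All 4 treated arrays lay above both controls, with no control near them, and the 2 treated groups overlapped. With EGF it rose 4.49-fold, by 2.17 ± 0.20 (standard error, adjusted p = 0.00159), and 0.816% of all probe sets differed by more. The control level was 11.37 ± 0.01 and the EGF level 13.54 ± 0.20 (SD, n = 2). KLF6 stayed called without any 1 of the 6 arrays in turn (2.02 to 2.31, adjusted p = 0.00529 to 0.0187).

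KLF10, a TGF-beta inducible repressor, measured 11.57 and 11.70 in the control, 11.98 and 12.39 with EGF, and 11.60 and 11.47 with EGF plus gefitinib. Both EGF arrays lay above all the others. The difference of 0.55 ± 0.20 from the control did not pass the test (adjusted p = 0.135), nor did that of −0.65 ± 0.20 between EGF plus gefitinib and EGF (adjusted p = 0.0678). Both passed when only probe sets above the limit on at least 2 arrays were tested (limma, adjusted p = 0.0339 and 0.0146). Over the alternatives that kept every array of the compared groups, the adjusted p ran from 0.0152 to 0.18 and from 0.00383 to 0.107. Neither difference was called with quantile normalization, a replicate block, only the arrays compared, or any 1 of the 6 arrays left out.

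KLF4, a factor of the epidermal barrier, measured 7.58 and 7.48 in the control, 7.59 and 7.93 with EGF, and 7.92 and 7.95 with EGF plus gefitinib, all above the limit of its array. EGF and control differed by 0.23 ± 0.19 (adjusted p = 0.513), with a 95% interval from −0.22 to 0.68. KLF2, a factor of endothelial and lymphocyte quiescence that FOXO proteins can induce, ran from 5.53 to 6.94 and was below the limit on every array. Its 2 highest values, 6.94 and 6.39, were those of the EGF plus gefitinib arrays, and no fold can be given for it. The 4 KLF genes thus had fitted EGF differences of 0.07, 0.23, 0.55 and 2.17, and whether these differ from gene to gene was not tested.

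BHLHE40 is a repressor of clock genes that also answers hypoxia and serum. It measured 11.76 and 11.72 in the control, 13.32 and 13.43 with EGF, and 12.67 and 12.54 with EGF plus gefitinib. The 3 groups lay apart, with EGF plus gefitinib in between. EGF raised it 3.10-fold, by 1.63 ± 0.17 (adjusted p = 0.00246), and this call held without any 1 of the 6 arrays (1.58 to 1.69).

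HES1 is a repressor that Notch signalling induces and that restrains its own gene. It measured 10.81 and 11.00 in the control, 9.37 and 9.08 with EGF, and 11.05 and 10.42 with EGF plus gefitinib. Both EGF arrays lay below all 4 others. With EGF it fell 3.20-fold, by 1.68 ± 0.25 on the log2 scale (adjusted p = 0.00818), against 1.85% of probe sets with a larger difference. The call was lost without control 2 (adjusted p = 0.0549) and without EGF 2 (0.0607), where the size stayed between −1.59 and −1.53, and over all arrays left out in turn the adjusted p ran from 0.00917 to 0.0607.

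IER5, an immediate early protein that can activate heat shock factor 1, measured 9.69 and 9.71 in the control, 10.55 and 10.62 with EGF, and 10.49 and 10.62 with EGF plus gefitinib. The treated groups overlapped, and all their arrays lay above both controls. EGF raised it 1.85-fold, by 0.89 ± 0.17 (adjusted p = 0.0184). The call was lost without control 1, control 2, EGF 1 or EGF 2 (0.85 to 0.92, adjusted p = 0.0921 to 0.108).

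IER2, its relative, measured 7.04 on both control arrays, 7.72 and 7.75 with EGF, and 7.31 and 6.67 with EGF plus gefitinib. Only the EGF arrays lay above the limit. The fitted difference of 0.69 ± 0.24 was not called (adjusted p = 0.111). With only the EGF and control arrays it passed (adjusted p = 0.0474), and leaving out either EGF plus gefitinib array repeated that fit. It also passed when only probe sets above the limit on at least 2 arrays were tested (adjusted p = 0.0303). IER2 met that filter only through its EGF arrays.

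MAFF, a small MAF protein with a DNA-binding and a pairing domain but no activation domain, measured 6.23 and 6.26 in the control, 6.99 and 7.03 with EGF, and 7.27 and 7.37 with EGF plus gefitinib. The groups lay in that order without overlap, but below the limit on all arrays except EGF plus gefitinib 2, so the size of the change is not known. Its fitted rise with EGF was 0.76 ± 0.17 (adjusted p = 0.0289), lost without control 1, control 2, EGF 1 or EGF 2 (adjusted p = 0.126 to 0.143). NFIL3, a repressor that competes with the PAR leucine zipper factors for their DNA sites, measured 9.53 and 9.38 in the control, 9.37 and 9.34 with EGF, and 9.75 and 9.62 with EGF plus gefitinib. Its EGF difference was −0.10 ± 0.17 (adjusted p = 0.778), with an interval from −0.51 to 0.31.

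Gefitinib in the presence of EGF was then set against EGF alone. BHLHE40 fell and HES1 rose, KLF6 and IER5 did not differ beyond their spread, and 8 of the 10 genes were not called. The 2 calls are 20% of the genes, close to the 18.7% of all probe sets called in this comparison (8.86% higher and 9.81% lower), so the share says nothing particular about these genes. Among probe sets above the limit on at least 2 arrays the share was 35.5%, with 15.7% higher and 19.8% lower. The arrays of the groups did not overlap for 7 of the 10 genes, beside 57.1% of all probe sets. The median difference was 0.07, against 0.05 over all probe sets.

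BHLHE40 was 1.70-fold lower, by −0.77 ± 0.17 (adjusted p = 0.0215), from 13.37 ± 0.08 to 12.61 ± 0.09 (SD, n = 2). That call was lost without EGF 1, EGF 2, EGF plus gefitinib 1 or EGF plus gefitinib 2 (−0.83 to −0.71, adjusted p = 0.0503 to 0.119). HES1 was 2.85-fold higher, by 1.51 ± 0.25 (adjusted p = 0.00717), from 9.22 ± 0.21 to 10.74 ± 0.45, and the call was lost without EGF 2 alone (1.36, adjusted p = 0.0524, in a range of 0.0117 to 0.0524). The EGF plus gefitinib arrays of HES1 stood further apart than its arrays of either other group, 1 above and 1 below the controls.

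For KLF6 the difference was −0.09 ± 0.20 (adjusted p = 0.816), with a 95% interval from −0.56 to 0.38. For IER5 it was −0.03 ± 0.17 (adjusted p = 0.933), with an interval from −0.43 to 0.37. Changes of a size within these intervals would not have been seen, so they do not show that gefitinib left the genes untouched. IER2, below the limit on both EGF plus gefitinib arrays, differed by −0.75 ± 0.24 and was not called (adjusted p = 0.0705), MAFF differed by 0.31 (adjusted p = 0.269) and KLF2 by 0.83 (adjusted p = 0.0708). NFIL3 and KLF4 differed by 0.33 and 0.18, with intervals from −0.08 to 0.74 and from −0.27 to 0.63.

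EGF plus gefitinib was last set against the untreated control, with the same control arrays as in the first comparison and the same gefitinib arrays as in the second, so the comparisons are not independent. KLF6, MAFF, BHLHE40 and IER5 were higher, and HES1, KLF10 and IER2 lay near their control level. The 4 higher calls of 10 stand against 2.19% of all probe sets called higher, again no test of an excess, since the genes were chosen with earlier results known. limma called 0 of the 10 lower, where 1.7% of all probe sets were called lower, and 0 of the 10 were lower at an unadjusted p under 0.05. In either direction 3.89% of all probe sets were called. Among those above the limit on at least 2 arrays the share was 7.48%, with 4.15% higher and 3.33% lower. The arrays did not overlap for 7 of the 10 genes, beside 50.4% of all probe sets. The median difference was 0.63, against 0.01 over all probe sets.

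KLF6 was 4.23-fold above the control (2.08 ± 0.20, adjusted p = 0.00826), beside 4.49-fold with EGF alone. IER5 was 1.81-fold above (0.86 ± 0.17, adjusted p = 0.043), beside 1.85-fold. BHLHE40 was 1.82-fold above (0.87 ± 0.17, adjusted p = 0.043), beside 3.10-fold. MAFF was at least 1.02-fold above (fitted 1.07 ± 0.17, adjusted p = 0.0243). HES1 differed by −0.17 ± 0.25, with an interval from −0.76 to 0.43, KLF10 by −0.10 ± 0.20 and IER2 by −0.05 ± 0.24. KLF4 and NFIL3 differed by 0.41 and 0.23, uncalled, and KLF2 by 0.90 (adjusted p = 0.108).

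These calls rested on all 6 arrays. Leaving out any 1 array left 0 or 1 of the 10 genes called higher, and between 0 and 145 of all probe sets, down from 470. KLF6 lost its call without control 1, control 2 or EGF plus gefitinib 2 (2.07 to 2.23, adjusted p = 0.0632 to 0.0779), and MAFF, BHLHE40 and IER5 lost theirs without each of the 6 arrays (adjusted p = 0.0588 to 0.187). With the replicate number as a block, or with only the arrays compared, 1 of the 10 genes was called. The sizes moved little, KLF6 between 1.92 and 2.23, IER5 between 0.79 and 0.92, and BHLHE40 between 0.80 and 0.93.

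**Figure D2:**
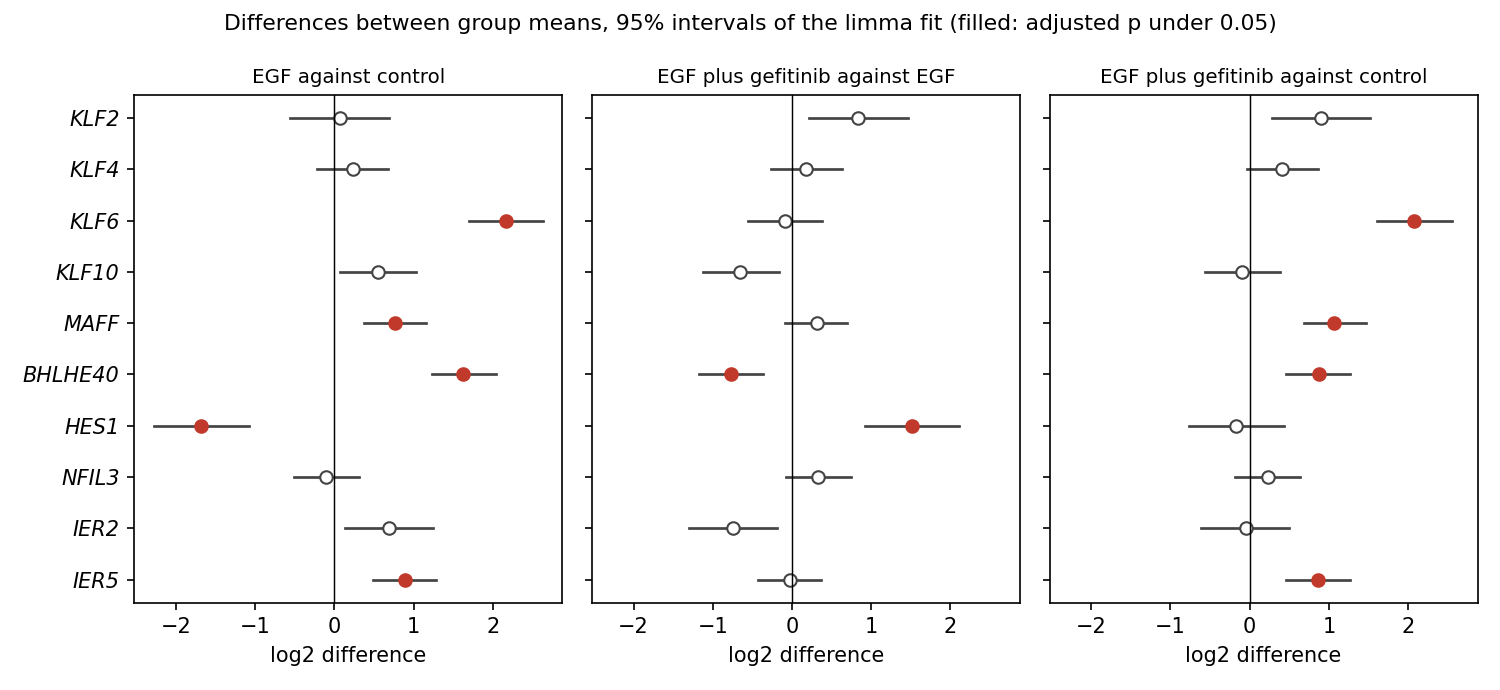
Log2 differences between group means (horizontal axis) for the 10 genes in the 3 comparisons, with 95% intervals of the limma fit on 6 arrays, filled where the adjusted p was under 0.05. The KLF6 and IER5 intervals lie right of 0 in both comparisons with the control and span 0 between the treated groups, and those of HES1 lie on opposite sides of 0 in the first and second panels.

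Levels of other cell type markers moved between some groups. On a log2 scale, the summed signal of the 6 endothelial markers was 7.79 to 8.10 in the control, 7.03 to 7.23 with EGF and 8.26 to 8.33 with EGF plus gefitinib and like HES1 it was lowest on both EGF arrays. CDH5, a junction protein, was the endothelial marker above the limit on any array. CDH5 lay above it only on control 1 and EGF plus gefitinib 2, so the endothelial sum rests on signal near or below the limit. Its fitted differences were −2.22 between EGF and control (limma, adjusted p = 0.0027) and 2.57 between EGF plus gefitinib and EGF (adjusted p = 0.000901). The true sizes of these changes in CDH5 are not known. In the same order of groups, the summed signal of the epithelial markers was 18.25 to 18.27, 18.85 to 18.90 and 18.11 to 18.19. The fibroblast sum was 10.01 to 10.11, 8.94 to 9.26 and 9.10 to 9.53. The leukocyte sum was 12.78 to 12.82, 12.86 to 13.10 and 12.29 to 12.70. It rests almost wholly on CD68, at 12.78 and 12.76, 13.08 and 12.83, and 12.67 and 12.26. The fibroblast sum rests largely on LUM, and the epithelial sum largely on KRT5 and SFN, which differed by 0.07 and 1.02 with EGF. These sums are therefore not measures of whole cell types. The part of the markers in the results was not tested. In RNA of whole cultures, fewer cells making a transcript and less of it per cell cannot be told apart.

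The genes most like each of the 10 were those with the smallest root mean square distance of log2 values, centred on the control mean, over the 6 arrays, among 8104 other genes above the limit on at least 2 arrays (8105 for KLF2 and MAFF, which were not among them). Nearest to KLF6 were VEGFA, the vascular growth factor (distance 0.19), PLAU, the urokinase gene (0.27), and SLC20A1, a phosphate transporter (0.30). VEGFA differed by 2.01 between EGF and control and by 0.34 between EGF plus gefitinib and EGF. Nearest to BHLHE40 were SINHCAF (0.10), MYC, a growth-promoting helix-loop-helix factor (0.11), and LETM2 (0.14). MYC differed by 1.52 and then by −0.80, beside 1.63 and −0.77 for BHLHE40.

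Nearest to IER5 were MGA, a partner of MAX (0.04), the cell cycle repressor E2F7 (0.07) and PRPF39, a splicing factor (0.08). Nearest to HES1 were EPHA4, an ephrin receptor, CIRBP, a cold-inducible RNA-binding protein, and RMI2, each at 0.15. These 3 genes differed by −1.83 to −1.67 with EGF and by 1.37 to 1.65 with gefitinib added. The nearest of so many candidates are picked for being close, so a small distance is no evidence of shared regulation. For the genes that moved little, distances were also small. They were 0.04 to 0.05 for RPL34, COX7A2L and PEX14 beside NFIL3, and 0.06 to 0.07 for FAM174A, DDX60 and H4C11 beside KLF4. METTL2A, USP12 and HMGXB3 were nearest to KLF10 (0.07 to 0.08), and KNOP1, ZNF649 and PNN to IER2 (0.05 to 0.09). CLDND1, KIF14 and KLHL20 were nearest to MAFF (0.06 to 0.08), and MAPK8, ELP2 and FIGN to KLF2 (0.13 to 0.15). IER2, MAFF and KLF2 lay below the limit on most or all arrays, so their distances are uncertain.

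Among the 10 genes themselves, MAFF and IER5 were closest (0.14), both higher in each treated group than in the control. KLF10 and IER2 followed (0.21), both highest on the EGF arrays. KLF4 and NFIL3 (0.25) were the next pair. MAFF and IER2 lay below the limit on most arrays, so the distances of the first and second pairs rest partly on signal of unknown size.

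**Figure D3:**
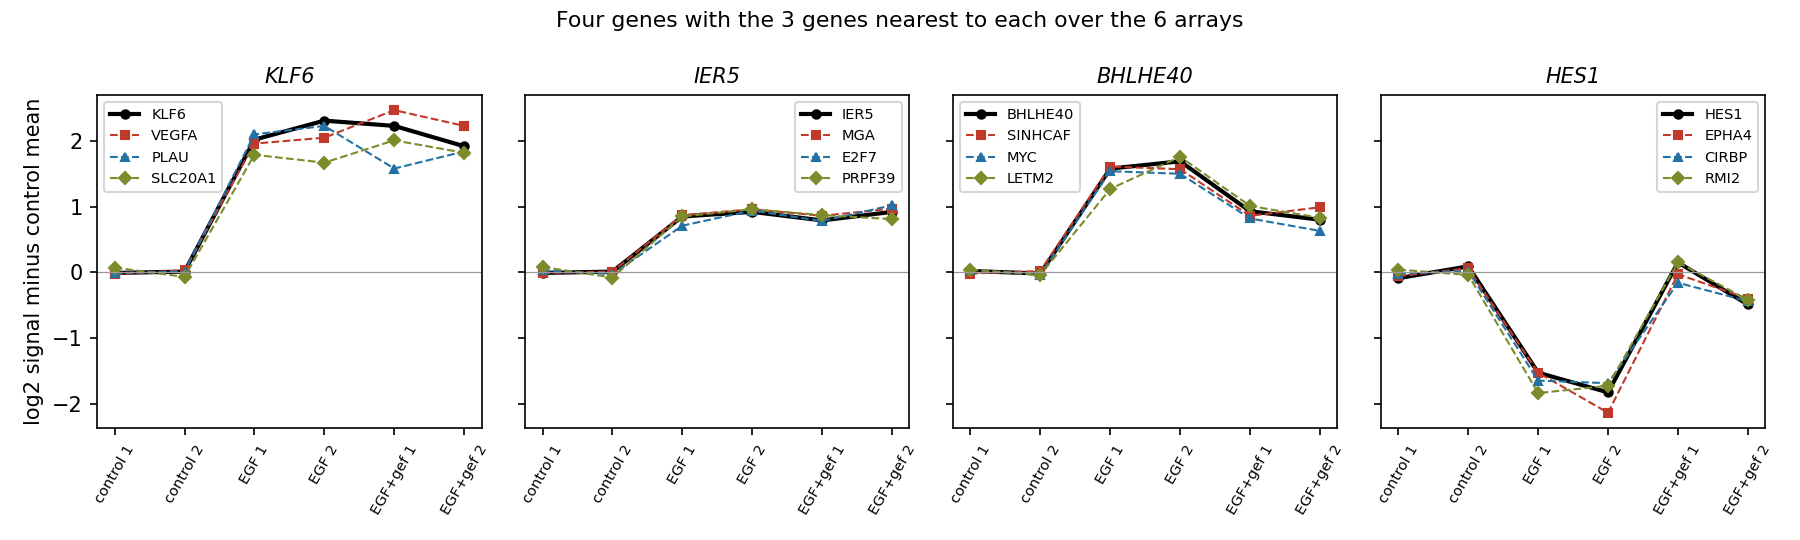
Log2 signal minus the control mean (vertical axis) on each of the 6 arrays for KLF6, IER5, BHLHE40 and HES1 (black) and the 3 genes nearest to each (dashed). The lines join arrays of one gene and carry no order between replicates, and HES1, EPHA4, CIRBP and RMI2 are lowest on the EGF arrays.

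Genes related to the 10 by family or pathway were taken from lists of known relatives, of which 84 entries had a probe set. Counts of their calls stand beside these shares of all probe sets. With EGF 6.61% were called higher and 5.3% lower. With gefitinib added 8.86% were higher and 9.81% lower than with EGF, and 2.19% higher and 1.7% lower than the control. Of 21 other KLF and SP family members measured, 8 lay above the limit on at least 2 arrays. With EGF, limma called 1 higher and 3 lower, with a median of −0.02 beside −0.03 over all probe sets. KLF7 rose by 0.92 ± 0.22 (adjusted p = 0.0376). KLF5, a factor of proliferating epithelium, fell by 0.90 ± 0.17 (adjusted p = 0.0184) and SP1, a broadly active GC-box factor, by 0.75 ± 0.18 (adjusted p = 0.037). KLF12 was called lower but lay below the limit in both groups.

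With gefitinib added, 4 of the 21 were called higher than with EGF and 0 lower (1 lower at an unadjusted p under 0.05), with a median of 0.21 beside 0.05. SP1 was 2.16-fold higher (1.11 ± 0.18, adjusted p = 0.00595), KLF3 1.64-fold (0.72 ± 0.18, adjusted p = 0.0312) and SP3 1.59-fold (0.67 ± 0.18, adjusted p = 0.0382). KLF12 was called higher below the limit. Between EGF plus gefitinib and the control limma called 0 of the 21, with 2 higher and 2 lower at an unadjusted p under 0.05. Of these calls, only that of SP1 in the second comparison held without any 1 of the 6 arrays. Without 1 array in turn, 0 to 1 members were called higher and 0 to 2 lower with EGF, and 1 to 2 higher with gefitinib added.

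Small MAF proteins such as MAFF bind DNA as partners of BACH and CNC factors. Of 10 relatives measured, 1 rose and 1 fell with EGF. NFE2L3 rose 3.21-fold (1.68 ± 0.18, adjusted p = 0.00284), and NFE2L2, the oxidative stress factor NRF2, fell 2.61-fold (by 1.38 ± 0.19, adjusted p = 0.00578). With gefitinib added, NFE2L3 was at least 4.05-fold lower (−2.49 ± 0.18, adjusted p = 0.000469) and NFE2L2 3.57-fold higher (1.84 ± 0.19, adjusted p = 0.00121). BACH1, a repressor of NRF2 targets, was 1.83-fold higher than with EGF (0.88 ± 0.21, adjusted p = 0.0299) and 2.27-fold above the control (1.18 ± 0.21, adjusted p = 0.0355). The NFE2L3 and NFE2L2 calls held without any 1 array, and both BACH1 calls were lost without at least 1 of the arrays. MAFG, another small MAF, lay below the limit on all 6 arrays.

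BHLHE40 and NFIL3 belong to the output of the circadian clock, and 15 other clock and PAR leucine zipper genes were measured. With EGF 5 fell and 2 rose, with a median of −0.54 beside −0.03 over all probe sets. BHLHE41, the closest relative of BHLHE40, measured 13.52 and 13.59 in the control, 11.28 and 11.22 with EGF, and 13.22 and 12.78 with EGF plus gefitinib. It fell 4.95-fold with EGF (by 2.31 ± 0.20, adjusted p = 0.0014) while BHLHE40 rose. DBP, a PAR factor whose sites NFIL3 shares, fell at least 4.39-fold (fitted −2.77 ± 0.19, adjusted p = 0.000638), TEF, another, at least 2.50-fold and NR1D2, a nuclear receptor of the clock, 3.51-fold (by 1.81 ± 0.25, adjusted p = 0.00572).

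The remaining called clock genes lie outside the naming rule and were named after their values were seen. PER3 was lower with EGF (−1.24, adjusted p = 0.00948), and CLOCK and NPAS2, which drive the clock, were higher (0.78 and 0.77, adjusted p = 0.0461 and 0.0404). With gefitinib added 3 genes were higher than with EGF, NR1D2 (5.66-fold), DBP (at least 3.21-fold) and BHLHE41 (3.37-fold), with adjusted p-values of 0.00105, 0.000654 and 0.00187. The 3 lower genes were CLOCK (−1.21), NPAS2 (−0.66) and CRY1, which lay below the limit throughout and was also the 1 gene called against the control. Without 1 array in turn, 4 to 5 genes were called lower and 0 to 1 higher with EGF, and 3 to 4 higher and 2 lower with gefitinib added. No gene was then called lower against the control by limma, where 4 were lower at an unadjusted p under 0.05 with all arrays.

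Of 18 other HES, HEY and Notch pathway genes measured, 6 lay above the limit on at least 2 arrays, so most could not be followed. With EGF limma called 1 higher and 0 lower (3 lower at an unadjusted p under 0.05). That gene was JAG1, a Notch ligand, which rose 2.10-fold (1.07 ± 0.20, adjusted p = 0.0179). With gefitinib added the ligand DLL1 was 2.09-fold higher than with EGF (1.06 ± 0.18, adjusted p = 0.00827) and the receptor NOTCH2 1.95-fold (0.96 ± 0.21, adjusted p = 0.0182). NOTCH2 was also 2.13-fold above the control (1.09 ± 0.21, adjusted p = 0.0382). Each of these 4 calls was lost without at least 1 array. Of the other HES and HEY genes only HES4 lay above the limit on all 6 arrays, at 8.80 and 8.73, 8.47 and 8.51, and 8.38 and 8.66, and it differed by −0.28 with EGF (adjusted p = 0.403).

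IER3, a stress and growth factor response gene that shares a name but not a protein family with IER2 and IER5, measured 12.31 and 12.56 in the control, 14.78 and 14.89 with EGF, and 14.18 and 13.76 with EGF plus gefitinib. The 3 groups did not overlap, and the gefitinib arrays lay between the others. It rose 5.28-fold with EGF (2.40 ± 0.21, adjusted p = 0.0014), was 1.82-fold lower with gefitinib added (−0.87 ± 0.21, adjusted p = 0.03) and was then 2.90-fold above the control (1.54 ± 0.21, adjusted p = 0.0175). The first of these calls held without any 1 array and the other 2 did not. IER5L lay below the limit on all arrays.

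Of 11 other transcription factors known to answer growth factors, 2 rose with EGF and 0 fell (limma, 1 lower at an unadjusted p under 0.05). ETS1 rose 3.13-fold (1.65 ± 0.21, adjusted p = 0.00425) and SRF, the serum response factor, 2.06-fold (1.04 ± 0.25, adjusted p = 0.0376). With gefitinib added, 4 were higher than with EGF and 1 was lower, with a median of −0.18 beside 0.05 over all probe sets. ETS1 was 2.84-fold lower (−1.51 ± 0.21, adjusted p = 0.0033). ATF3, a stress-induced factor, was at least 1.60-fold and ETV5 at least 2.61-fold higher (adjusted p = 0.00123 and 0.00262). SNAI2, a repressor of epithelial genes named here after its value was seen, was higher by 0.85 (adjusted p = 0.0139). Against the control 4 were higher and 0 lower (limma, 0 lower at an unadjusted p under 0.05), with a median of 0.38 beside 0.01. ATF3 was at least 1.69-fold higher (adjusted p = 0.0117), ETV5 at least 2.77-fold (adjusted p = 0.0166) and SNAI2 2.14-fold (1.10 ± 0.17, adjusted p = 0.0234). The fourth gene in both comparisons was SNAI1, which lay below the limit throughout. Without 1 array in turn, 1 to 3 were called higher with EGF, 3 to 4 higher and 1 to 2 lower with gefitinib added, and 0 to 2 higher against the control. The ETS1 calls and the ATF3 and ETV5 calls against EGF held without any 1 array. That of SRF did not, nor did any of the named calls against the control.

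Known targets of the 10 proteins were measured for 7 genes, of which 2 lay above the limit on at least 2 arrays. CDKN1A, the cell cycle inhibitor p21 that KLF4 and KLF6 can induce, measured 10.00 and 9.24 in the control, 11.82 and 11.81 with EGF, and 11.26 and 10.97 with EGF plus gefitinib. It rose 4.58-fold with EGF (2.19 ± 0.27, adjusted p = 0.00416) and was 2.81-fold above the control with gefitinib added (1.49 ± 0.27, adjusted p = 0.0352). CDKN1B, the inhibitor p27, was 2.95-fold higher with EGF plus gefitinib than with EGF (1.56 ± 0.20, adjusted p = 0.00243) and 2.45-fold above the control (1.29 ± 0.20, adjusted p = 0.0223). THBD, a KLF2 target, was called higher with EGF below the limit. The calls of CDKN1A and CDKN1B against the control with gefitinib were lost without each of the 6 arrays.

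**Figure D4:**
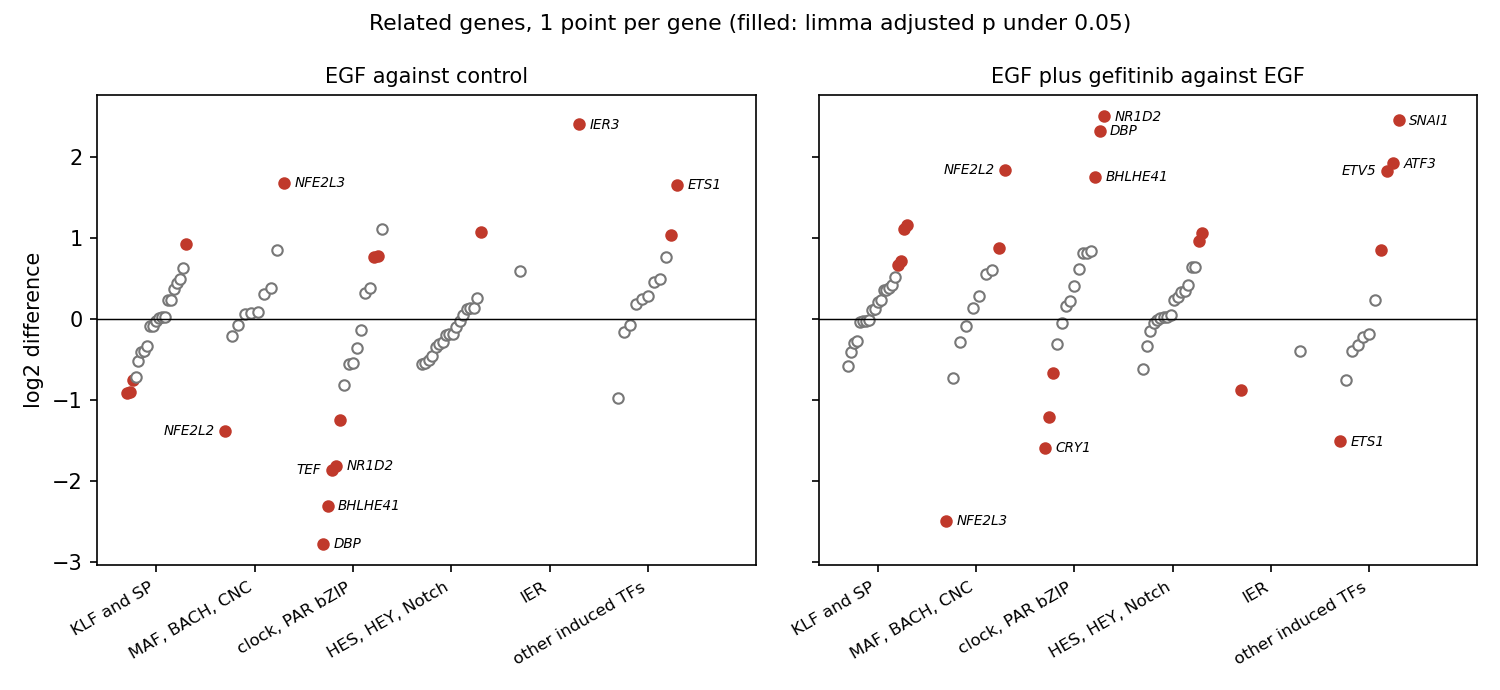
Log2 differences (vertical axis) of the measured relatives of the 10 genes, without their known targets, 1 point per gene, ordered by value within each of 6 lists (horizontal axis), for EGF against control and for EGF plus gefitinib against EGF, filled where limma's adjusted p was under 0.05. DBP (−2.77) and BHLHE41 (−2.31) are the lowest points for EGF and IER3 (2.40) the highest. The called genes that differed most carry their names.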

How the data were processed

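RNA of 6 samples of A431 cells, 2 per group, was measured on 1 array each. Deposited values are log2 signals per probe set. For these the submitters' processing notes name Transcriptome Analysis Console as the authors' program. How it corrected background and normalized, and its version, were not given in the sources used here. Their scale was read from the values, which were used unchanged, with no value column left unassigned.

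The table held 24351 probe sets. Without its 2903 controls, all 21448 transcript probe sets were fitted with limma 3.58.1 in R 4.3.3 (lmFit and eBayes, 6 arrays, 3 group means, with 3 residual degrees of freedom and a prior worth 4.22). Two-sided tests were used, with Benjamini-Hochberg adjustment over all of them. The platform annotation gave 1 symbol to 17709 probe sets, several to 0 and none to 3739. Where the dimmer group lay at or below the 95th percentile of 612 negative controls on both arrays, a fold is a lower bound, from the brighter mean against those limits. The number of arrays limits the precision. Motifs were searched with Python 3.11.15. The fit was also run on simulated independent values with 200 changed probe sets and spreads shuffled among probe sets. That run checks the code and not the results.

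The 10 genes and the lists were chosen with earlier results of these data known. All 10 were named in every comparison, as were up to 4 called genes of each related list with the largest differences, the 3 nearest genes to each of the 10, and FOS and EGR1. Alternatives were another fit, normalization, centring, a filter, eBayes settings, a replicate block and leaving out arrays.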

Additional observations from a re-analysis of the deposited data

How the results depend on the processing

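For the 10 genes in 3 comparisons, the alternatives gave 354 values. Of these, 298 stayed on their side of the threshold, 43 lost a call, 13 gained one and 0 of the called values changed sign. The filter on low values left KLF2 and MAFF untested, and IER2 met it only through its EGF arrays. Leaving out an array of the group not compared repeated the fit of the compared groups alone, so the values are not all separate. Quantile normalization kept each count of called genes among the 10, and each count over all probe sets, within 1.5 times. Each gene has 1 probe set, so averaging probe sets was not run. Median centring moved the median of all probe sets by at most 0.073 in size and gave 2 of the 10 called lower for EGF plus gefitinib against EGF, the filter 3, and eBayes with trend and robust 3 lower and 2 higher. Over all probe sets, the filter called 2182 higher and 1763 lower for EGF against control, and 1230 and 1308 for EGF plus gefitinib against control. eBayes with trend and robust called 2281 and 1960, and 1373 and 1404. For the last comparison, the 2 groups alone gave 1 of the 10 genes called higher, and 145 probe sets higher and 102 lower.

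The deviations of same-numbered arrays from their group means correlated at −0.041 to 0.021, so no large effect shared by same-numbered arrays was seen. Such correlations cannot show whether same-numbered samples were grown or handled together. With the replicate block, 1 of the 10 genes, KLF6, was called higher for EGF plus gefitinib against control, and 192 probe sets higher and 141 lower. MAFF also lost its call against control with EGF (adjusted p = 0.0514, in a range of 0.023 to 0.143 over its alternatives).

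Leaving out 1 array in turn gave, for EGF against control, 2 to 5 of the 10 genes higher and 0 to 1 lower, and 385 to 1371 probe sets higher and 341 to 1135 lower. For EGF plus gefitinib against EGF it gave 0 to 1 higher and 0 to 1 lower, with 865 to 1598 and 1024 to 1808 probe sets. For EGF plus gefitinib against control it gave 0 to 1 higher and 0 lower, with 0 to 145 and 0 to 102 probe sets. A lone array is assumed to vary like the other groups. Signal near the negative-control limit restricts what can be said of KLF2, KLF4, MAFF and IER2.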
